A study of Rattus norvegicus with 18 samples.

Results

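The genes described here encode the extracellular matrix of the kidney and the factors that build, cross-link and degrade it. They are a list of 40 genes, from fibrillar and basement membrane collagens to matrix proteases and growth factors of fibrosis. A probe set naming the gene alone was found for 39 of them, each gene being represented by its brightest probe set over all arrays, and Thbs1 was not analysed here. Of the 39, 36 passed the filter on dim probe sets and were tested among 10483 genes of the whole series. The filter left out Postn, Mmp7 and Mmp9.

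The study hybridised the whole-kidney RNA of 18 rats to Affymetrix Rat Genome 230 2.0 arrays, with 1 array per rat. Of these, 9 came from Dahl S, the inbred Dahl salt-sensitive strain SS/Jr that develops hypertension and kidney damage. The other 9 came from S.SHR(2), a congenic for which the labels name SS/Jr and SHR/NHsd as parents, and by its name the segment of the spontaneously hypertensive rat lies on chromosome 2. The design text describes male rats of 4, 12 and 20 weeks, with 3 rats per strain and age taken at random from animals tested for protein in the urine, and the title calls the congenic protective for the kidney. Age is labelled for 2 rats, both Dahl S, at 4 and 12 weeks, and for these the diet is given as low salt (0.3% NaCl). The other 16 rats were placed in no age group, and neither the order of deposition nor the values were used to assign one. Nothing in the labels says that rats were pooled.

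Fibrillar collagens form the tensile fibres of the interstitium, and collagen IV, laminins and nidogen form the basement membranes of tubules and glomeruli. In growing kidneys matrix genes are active as tubules and vessels enlarge. In chronic injury they are switched on again in fibroblasts and pericytes, largely under transforming growth factor beta, and the matrix then accumulates as scar. A whole-kidney array reads the sum over all cell types, so fewer cells of a type and less RNA per cell cannot be told apart.

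Values below are deposited intensities, in arbitrary units, unless a log2 scale is named, and the arrays had been scaled to nearly the same trimmed mean. The intensities of different genes come from different probes and are not compared with one another. Markers of 2 kidney segments were bright in every rat, Slc34a1 of the proximal tubule at 4672 or more and Umod of the thick ascending limb at 5258 or more. On 2 arrays the GAPDH control had a higher 3′/5′ ratio than on the others, a sign of RNA degradation: 2.51 in S.SHR(2) replicate 1 and 2.04 in Dahl S replicate 5. The other 16 arrays lay from 1.19 to 1.74. Nothing in the labels says whether rats of a strain shared a litter or a day, so p-values measure the spread between these 18 kidneys.

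**Figure D1:**
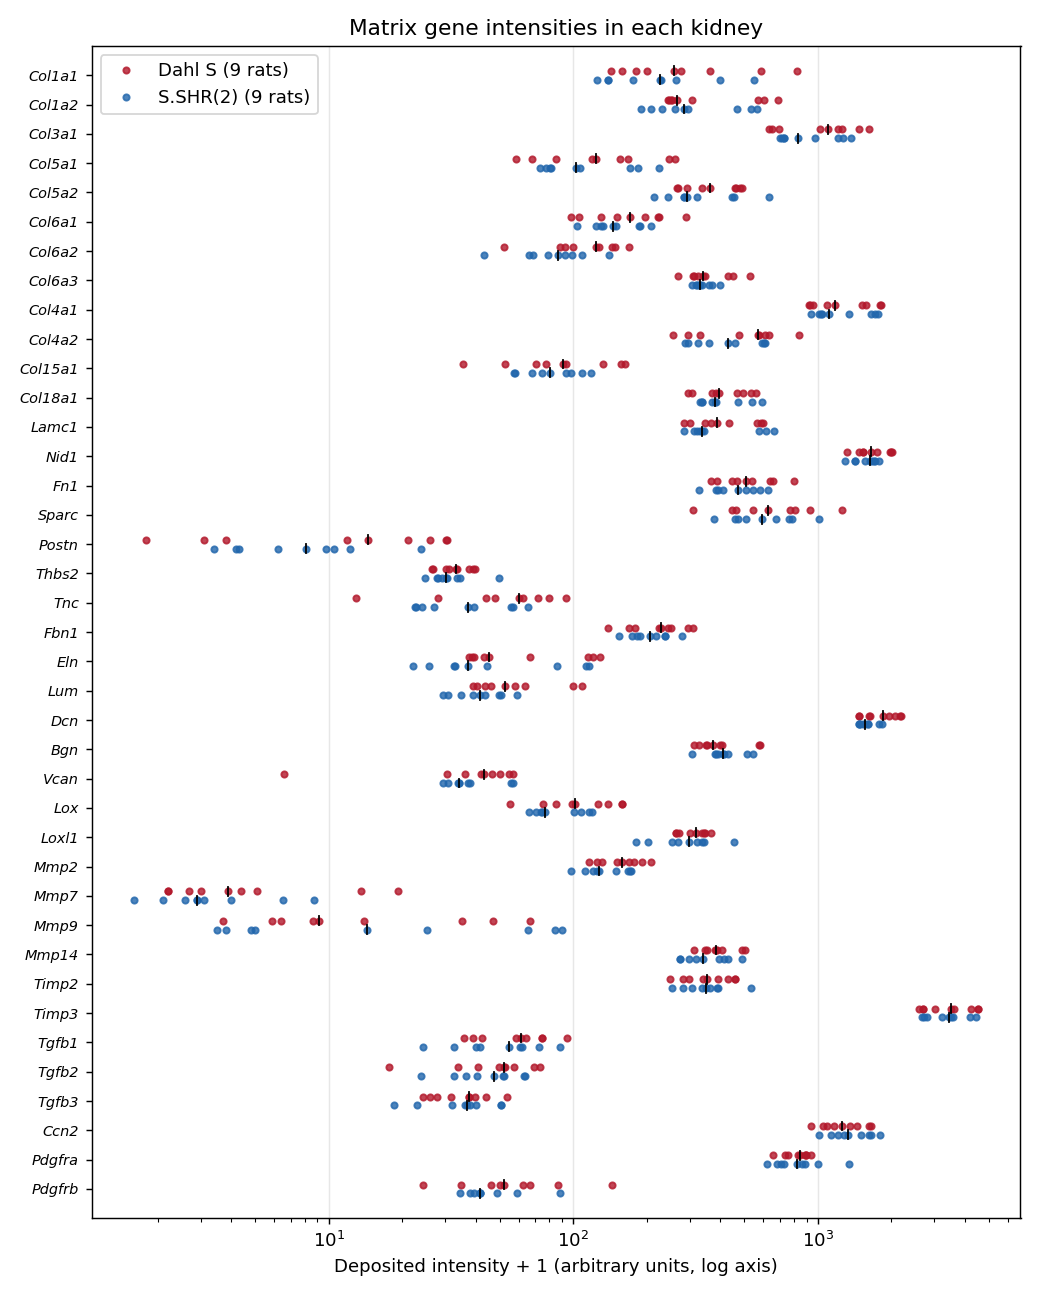
Deposited intensity plus 1 (log axis) of the 39 measured matrix genes, with 1 point per rat, Dahl S in red and S.SHR(2) in blue, and a black tick at the median of each strain. Genes are in the order of their roles from fibrillar collagens to growth factor receptors, the strains overlap for every gene, and the dim Postn, Mmp7 and Mmp9 were not tested.

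The first question was whether matrix genes differed between the kidneys of the congenic that the title calls protective and those of its Dahl S parent. None of the 36 was called, at an adjusted p under 0.05 in limma over 10483 genes, where 6 genes or 0.0572% were called, 4 lower in S.SHR(2) (0.0382%) and 2 higher (0.0191%). With arrays centred on their medians, 3 genes were lower and 5 higher. None of the members' other probe sets was called over 18625 probe sets, of which 0.123% were called. At an unadjusted p under 0.05, Dcn alone passed, or 1 of 36, against 4.23% of all genes. The ranges of the strains overlapped for all 36, and over all genes 0.0859% had ranges apart. The direction was mostly shared. Of the 36, 31 were below 0, meaning lower in S.SHR(2), against 43.4% of all genes, and their median log2 difference was −0.13 against 0.02 over all genes. These genes vary together from rat to rat, so the 31 are not independent observations. Other tested probe sets of Timp3 (0.15 and 0.03), Nid1 (0.11) and Col6a3 (0.11) had the opposite sign to the brightest. The rest shared the sign of the brightest. The unadjusted 95% interval had a typical half-width of 0.34 on the log2 scale. For a typical member a smaller difference would not reach an unadjusted p under 0.05. A call after adjustment over 10483 genes needed a larger difference still. The design text describes rats of several ages in each strain and the fit has no term for age. The interval therefore includes any difference with age, and a strain difference at a single age was not tested.

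The fibrillar collagens Col1a1, Col1a2, Col3a1, Col5a1 and Col5a2 were all below 0, with none called. Col1a1 encodes the main chain of type I collagen. Its intensity ran from 142 over a median of 256 to 824 in Dahl S, and from 124 over 226 to 548 in S.SHR(2). Both strains thus spanned several-fold, and their ranges overlapped over most of their length. The log2 difference was −0.30 ± 0.321 (SE, n = 9 each, limma adjusted p = 0.999), and its 95% interval reached from −0.96 to 0.37. Col3a1, the chain of type III collagen, ran from 632 over 1103 to 1615 in Dahl S and from 698 over 832 to 1369 in S.SHR(2). Its log2 difference was −0.17 ± 0.194 (SE). Col1a2, Col5a1 and Col5a2 lay between −0.14 and −0.13.

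Collagen VI forms beaded microfibrils around cells, and its 3 chains were also below 0. Col6a2 ran from 51.4 over 123 to 169 in Dahl S and from 42.4 over 86.1 to 140 in S.SHR(2), a log2 difference of −0.33 ± 0.184 (SE, limma unadjusted p = 0.087, adjusted p = 0.999). The values of Col6a1 and Col6a3 were −0.14 and −0.08. For Col6a3 the rats of Dahl S were spread more widely than those of S.SHR(2), from 268 to 525 against 305 to 396.

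The 6 genes of basement membranes, Col4a1, Col4a2, Col15a1, Col18a1, Lamc1 and Nid1, lay between −0.18 and −0.03. Col4a2 was at −0.18 ± 0.213 and Col4a1 at −0.03 ± 0.167 (SE). Lamc1, the laminin gamma chain shared by most laminins, ran from 283 to 598 in Dahl S and from 282 to 660 in S.SHR(2). Nid1, which links laminin to collagen IV, was the member of this group with the narrowest spread, from 1321 to 2012 in Dahl S and from 1296 to 1779 in S.SHR(2) (log2 difference −0.13 ± 0.084 SE).

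Col4a1 and Col4a2 are shown because they start head to head: in RefSeq on GRCr8 their start sites lie 77 bases apart on opposite strands of chromosome 16, and their windows share 176 bases. Windows run from 250 bases before to 50 after the start, and were found for 27 of the 40 genes. Col1a2 is shown beside them as a fibrillar collagen gene whose values separated the rats into clusters, described further on. Capitals mark matches, on either strand, to 3 common promoter motifs: the CCAAT box, the GC box GGGCGG and the TATA box TATAAA. The windows are chr16:84885347-84885646 on the plus strand, chr16:84885471-84885770 on the minus strand and chr4:33518307-33518606 on the plus strand.
Col4a1: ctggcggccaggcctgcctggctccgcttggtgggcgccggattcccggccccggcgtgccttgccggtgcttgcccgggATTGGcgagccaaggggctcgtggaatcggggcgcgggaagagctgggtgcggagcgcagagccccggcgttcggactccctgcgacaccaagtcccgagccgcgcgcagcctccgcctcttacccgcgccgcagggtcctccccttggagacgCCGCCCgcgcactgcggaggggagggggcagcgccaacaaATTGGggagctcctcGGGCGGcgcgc
Col4a2: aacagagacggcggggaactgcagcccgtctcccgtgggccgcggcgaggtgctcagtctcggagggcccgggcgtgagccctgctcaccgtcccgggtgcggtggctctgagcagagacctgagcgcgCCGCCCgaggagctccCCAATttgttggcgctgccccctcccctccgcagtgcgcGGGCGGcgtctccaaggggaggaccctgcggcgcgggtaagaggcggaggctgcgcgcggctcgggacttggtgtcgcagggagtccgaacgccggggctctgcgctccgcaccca
Col1a2: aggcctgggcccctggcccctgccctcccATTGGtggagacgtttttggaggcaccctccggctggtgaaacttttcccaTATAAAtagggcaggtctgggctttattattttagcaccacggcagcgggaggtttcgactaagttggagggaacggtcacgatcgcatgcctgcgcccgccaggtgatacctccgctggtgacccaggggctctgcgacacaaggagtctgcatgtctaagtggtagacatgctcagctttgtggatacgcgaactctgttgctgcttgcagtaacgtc
Col4a1 held 2 matches to CCAAT and 2 to GGGCGG, and Col4a2 held 1 and 2, the shared stretch counting in both. Col1a2 held 1 match to CCAAT and 1 to TATAAA. The motif CCAAT was found in 37.5% of all 33469 windows and in 10 of the 27 member windows, GGGCGG in 33.1% and 12 of 27, and TATAAA in 14.2% and 5 of 27. A match describes letters only, and binding was not measured here.

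Among glycoproteins and elastic fibre genes, 5 of 6 tested were below 0. Tnc, or tenascin C, a glycoprotein made in development and wound repair, ran from 12.0 over 58.9 to 92.6 in Dahl S and from 21.5 over 36.2 to 64.2 in S.SHR(2), a log2 difference of −0.28 ± 0.226 (SE). Fn1, fibronectin, was at −0.18 ± 0.146, Eln, the elastin core protein, at −0.24 ± 0.277, and Sparc, a collagen-binding protein, at −0.09 ± 0.226 (SE). Fbn1 of the microfibrils was at −0.08 and Thbs2 at 0.01. Postn, periostin, was too dim for the test, at 0.8 to 29.4 in Dahl S and 2.4 to 22.8 in S.SHR(2). Postn lies on chromosome 2, as does Vcan.

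The small proteoglycans Dcn and Lum bind collagen fibrils and set their width. Dcn, decorin, ran from 1470 over 1847 to 2186 in Dahl S and from 1471 over 1552 to 1832 in S.SHR(2). The lower ends were alike and the upper end lay higher in Dahl S. The log2 difference was −0.23 ± 0.088 (SE, 95% interval −0.41 to −0.05, limma unadjusted p = 0.017, adjusted p = 0.999). Lum, lumican, ran from 38.1 over 51.9 to 108 in Dahl S and from 28.4 over 40.5 to 58.1 in S.SHR(2) (log2 difference −0.33 ± 0.163 SE, limma unadjusted p = 0.055). With arrays centred on their medians, the unadjusted p of Dcn was 0.14, with a difference of −0.14. Bgn, biglycan, was at 0.05 and Vcan, versican, at 0.04, and for Vcan the lowest Dahl S rat, replicate 9, had 5.6 and the next 29.6.

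The 6 tested cross-linking enzymes, proteases and protease inhibitors were all below 0 with none called. Lox, which cross-links collagen and elastin, was at −0.21 ± 0.163 and Loxl1 at −0.11 ± 0.135 (SE). The gelatinase Mmp2 was at −0.16 ± 0.115 and the membrane protease Mmp14 at −0.14 ± 0.121 (SE). Timp2 and Timp3, inhibitors of these proteases, were at −0.02 and −0.06. Timp3 intensity ran from 2584 to 4530 in Dahl S and from 2670 to 4424 in S.SHR(2).

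Of the 6 growth factors and receptors 4 were below 0 and 2 above. Ccn2, connective tissue growth factor, ran from 940 over 1258 to 1657 in Dahl S and from 1015 over 1328 to 1802 in S.SHR(2), a log2 difference of 0.08 ± 0.121 (SE). Tgfb1 was at −0.13 ± 0.191, Tgfb2 at −0.02 and Tgfb3 at 0.05. The receptor of fibroblasts and pericytes Pdgfrb was at −0.19 ± 0.203, and Pdgfra, marking fibroblasts, at −0.01 ± 0.117 (SE). S.SHR(2) replicate 1, with the highest 3′/5′ ratio, held the highest Pdgfra value, 1341, and leaving it and Dahl S replicate 5 out gave no called member either.

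**Figure D2:**
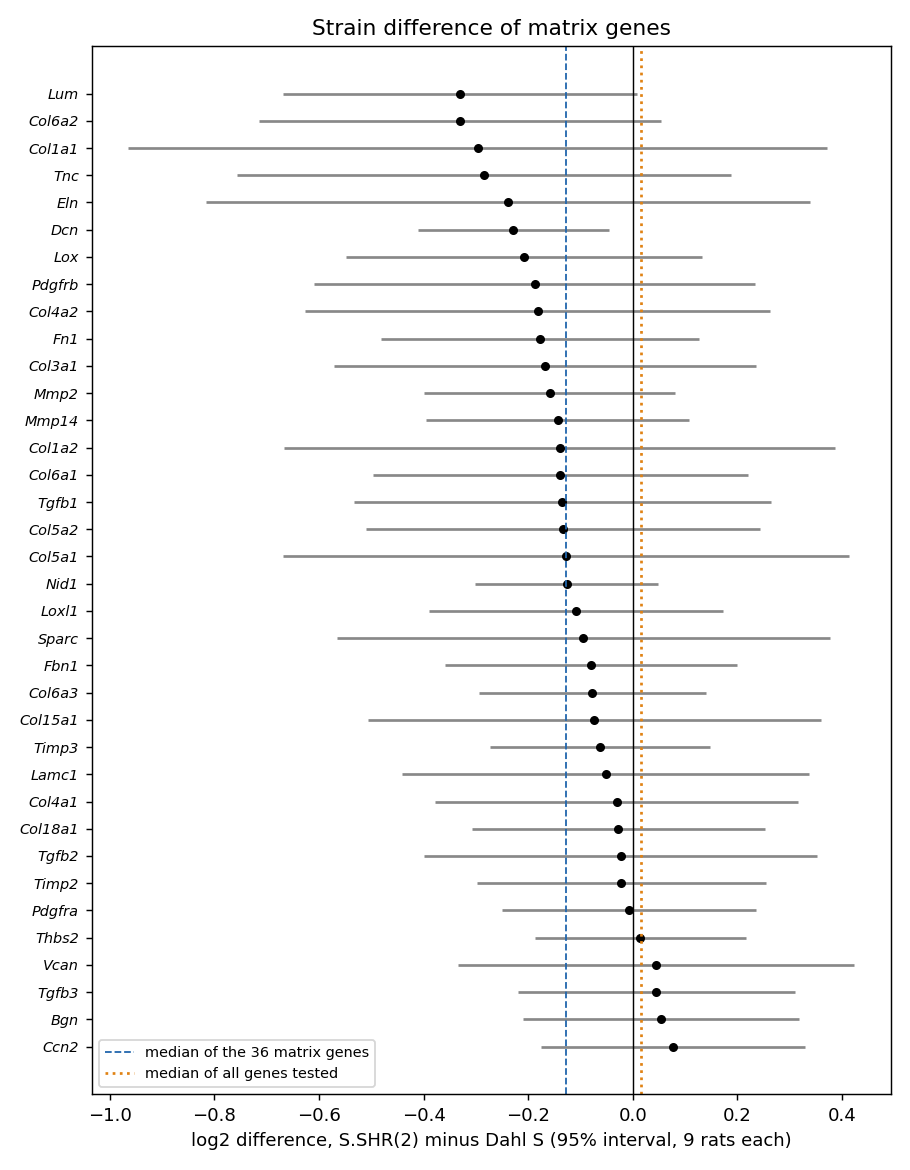
log2 difference between strains (S.SHR(2) minus Dahl S) of the 36 tested matrix genes, as points with 95% intervals from the limma fit on 9 rats each. Most points lie left of 0, the dashed line marks their median of −0.13, and the interval of Dcn alone excludes 0.

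A wider list of 117 other matrix genes gave no called gene among 85 tested, and 48 were below 0 with a median of −0.03. At an unadjusted p under 0.05, 3 of the 85 were lower and 3 higher, against 1.49% and 2.74% of all genes. The lower ones were Ddr2, a collagen receptor kinase (−0.25 ± 0.071 SE), and the integrin chains Itgav (−0.34 ± 0.143) and Itga1 (−0.34 ± 0.158), which bind matrix. The higher ones were Matn2 (0.31 ± 0.107), the protease Mmp11 (0.28 ± 0.114) and Tgfbi (0.18 ± 0.086). Plod2, which hydroxylates collagen lysines, was at −0.24 ± 0.119 and the protease inhibitor Timp4 at 0.18 ± 0.102. Ddr2 had the smallest limma adjusted p of these, 0.48. With 3 principal components of the residuals as covariates, Itgav and Itga1 were called (limma adjusted p = 0.0071 and 0.039), as was Spp1, an injury-induced matrix protein chosen after its values were seen (−0.53, adjusted p = 0.0031). In that fit 107 of 10483 genes were called, against 6 in the main fit. The components came from the residuals left after the strain fit. By construction they leave the strain differences unchanged and lower the residual spread. The p-values of that fit can therefore be too small, and its calls are not taken as strain differences.

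Marker lists of other cell types were set beside these values. All 9 tested macrophage genes were below 0 (median −0.19), and the summed intensity of the 10 measured ran from 2434 to 5312 in Dahl S and from 2120 to 5229 in S.SHR(2). Of the tubular injury genes 5 of 6 were below 0 (median −0.28), of proliferation genes 7 of 9 (median −0.13, 2 lower at an unadjusted p under 0.05), of endothelial genes 5 of 5 (median −0.05) and of lymphocyte genes 2 of 2. Other lists did not share the direction, with 0 of 5 podocyte genes below 0 (median 0.05), 3 of 7 of the proximal tubule, 1 of 3 of the distal segments and 2 of 4 of the collecting duct. For smooth muscle and mesangial genes 6 of 7 tested were below 0 (median −0.10), with sums over 8 genes from 1339 to 1951 and from 1190 to 1783. Cd68 of macrophages ran from 35.9 over 117 to 214 in Dahl S and from 28.4 over 117 to 206 in S.SHR(2), and Acta2 of smooth muscle from 117 over 182 to 245 and from 127 over 168 to 232. None of the tested markers was called. No marker was listed at 0 in any rat, but some were too dim for the test. Pvalb of the distal tubule, for example, ran from 1.2 to 26.2 in Dahl S and from 0.9 to 10.1 in S.SHR(2). The part of these cell types in the direction of the matrix genes was not tested.

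The spread between rats of a strain was large for matrix genes. By the design text each strain holds rats of several ages, so this spread includes any difference with age. The SD within strains on the log2 scale had a median of 0.38 over the 36, against 0.23 over all genes, and 31 of the 36 lay above the latter. Col1a1 had an SD of 0.76, larger than that of 99.1% of genes tested, followed by Eln at 0.65, Col5a1 at 0.61 and Col1a2 at 0.60. Nid1 at 0.18, Thbs2 at 0.17 and Dcn at 0.19 were among the least spread. Dahl S had the larger SD for 26 of 36, against 46.2% of all genes. The rats of Dahl S had an SD of 0.25 for Dcn and 0.30 for Col6a3, where those of S.SHR(2) had 0.10 and 0.11. Whether the strains differed in spread was not tested.

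The highest values did not come from the same rats for every gene. Ranks here were taken on normalized log2 values. In Dahl S, replicates 1, 2 and 3 were the 3 highest rats for 10 of 36 genes, against 7.22% of all genes: Col1a1, Col1a2, Col3a1, Col5a1, Col5a2, Col6a1, Lamc1, Eln, Mmp14 and Timp3. Replicate 2 is the rat labelled 4 weeks. Replicates 7, 8 and 9 were the 3 highest for Col6a3, Col15a1 and Tgfb2, or 8.33% of the 36 against 11.2% of all genes, which is no more than the background. Replicates 1, 7 and 8 were the 3 highest for Col6a2, Fn1, Tnc, Timp2 and Tgfb1, against 2.24% of all genes. Replicates 4, 5 and 6 were the 3 lowest for 16 genes, among them Col3a1, Fn1, Sparc, Dcn and Lox, against 5.60% of all genes. Replicate 4 is the rat labelled 12 weeks. In S.SHR(2), replicates 1, 2 and 3 were the 3 highest for 13 genes, against 8.57% of all genes. These included Col1a2, Col3a1, Col5a1, Col5a2, Col6a1, Lamc1, Eln, Mmp14 and Timp3, which are also in the Dahl S set. Col1a1 is not among them: S.SHR(2) replicates 3 and 2 had 548 and 398, and replicate 1, with the highest 3′/5′ ratio, had 137. Replicate numbers follow the order of deposition within each strain, and what that order stands for is not labelled. Rats with the same number in the strains are not partners.

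The labelled ages allow 1 rat of 4 weeks to be set beside 1 of 12 weeks, with no replicate and no test. Of the 36 genes 31 were higher in the 4-week rat, against 52.2% of all genes, and 16 were higher by 1.5-fold or more on the log2(intensity + 16) scale, against 5.16% of all genes. In the other direction Tgfb2 alone passed 1.5-fold, at 16.6 in the 4-week rat and 32.8 in the 12-week rat, against 5.62% of all genes. Col1a1 was at 586 in the 4-week rat and 199 in the 12-week rat, Col3a1 at 1470 and 649, and Lamc1 at 598 and 300. Eln was at 119 and 42.2, and Pdgfrb at 86.0 and 23.3. Values were closer for Dcn (1952 and 1477), Ccn2 (1167 and 940), Col6a2 (98.5 and 91.4) and Bgn (396 and 406). Nid1 was lower in the 4-week rat, at 1535 against 1976. These are differences between 2 animals, and age cannot be told apart from any other difference between them.

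To separate patterns among rats without an age for each, the genes were set against 2 markers: Top2a, a topoisomerase of dividing cells, and Havcr1, or kidney injury molecule 1, which injured proximal tubules express. Havcr1 ran from 13.4 over 229 to 1020 in Dahl S and from 15.3 over 188 to 439 in S.SHR(2). In each strain 3 rats lay low, at 13.4 to 21.7 in Dahl S and 15.3 to 40.7 in S.SHR(2), and the other 6 at 214 or more and 136 or more. The strain difference in Havcr1 was −0.43 ± 0.754 (SE, limma adjusted p = 0.999). On strain-centred log2 values this gap took 28.4% of the range, under the limit set for separate clusters. Relations were tested over all 18 rats, by permutation within strain. The design text describes rats of several ages in each strain, and this permutation does not hold age fixed. The relations were therefore not separated from shared differences in age. The younger of the 2 rats with an age label is among the 3 Dahl S rats of low Havcr1, and the older is not. Relations are also described within the 12 rats above the gap and the 6 below it. That split was chosen after the values were seen and Havcr1 itself fixes it, so values within it carry no test. Adjusted p-values cover all 136 relations computed. Correlations were computed for the matrix genes only. The counts of genes by sign or passing therefore have no share over all genes beside them, and do not set matrix genes apart from other genes.

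Over all 18 rats, 22 of 34 genes had a negative correlation with Havcr1, and 5 passed after Benjamini-Hochberg adjustment over 136 relations: Timp3, Lamc1, Mmp14, Col5a1 and Col5a2. Timp3 had r = −0.90 (permutation p = 1e-05, the smallest that 100000 permutations can give, adjusted p = 0.00068) and rho = −0.86 (permutation p = 2e-05, adjusted p = 0.0027). Without the 2 rats farthest from the median of Havcr1, r was −0.88. By Spearman's rho Timp3 alone of the 5 passed. In the 12 rats above the gap Lamc1, Mmp14, Col5a1 and Col5a2 had positive r, of 0.76, 0.19, 0.58 and 0.58. Their negative r over all 18 rats thus did not hold within those 12. Lamc1 had r = −0.79 (permutation p = 3e-04) but rho = −0.43 (permutation p = 0.07), and Col3a1, which did not pass, had r = −0.60 (permutation p = 0.015, adjusted p = 0.07) and rho = −0.45 (permutation p = 0.088).

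Timp3 encodes a protease inhibitor that binds to the matrix. It has 4 probe sets, and the brightest alone was correlated. In the 3 Dahl S rats of lowest Havcr1 its intensity was 4514, 4217 and 4530, and in the 3 of highest Havcr1 it was 2688, 2693 and 2584. The corresponding S.SHR(2) rats had 3576, 4424 and 4179 at the low end and 3505, 2712 and 2670 at the high end. The rats between lay from 2787 to 3618. S.SHR(2) replicate 1, at 3576, was the lowest of the low-Havcr1 rats and the array of highest 3′/5′ ratio, and without it and Dahl S replicate 5 r was −0.90.

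As a description, within the 12 rats above the gap 30 of 34 genes had a positive correlation with Havcr1, and 18 genes were negative over all rats and positive in the 12. In the 12, Tnc had r = 0.91 and rho = 0.94, and r = 0.90 without the 2 farthest rats. Over all 18 rats Tnc had r = −0.26 (permutation p = 0.35) and rho = −0.10 (permutation p = 0.72). Fn1 had r = 0.90 and rho = 0.91 in the 12, r = 0.84 without the 2 farthest, and r = −0.07 over all 18 rats (permutation p = 0.79). Col3a1 had r = 0.81 and rho = 0.76 in the 12. For Tnc the single values show both limbs. The 3 Dahl S rats of lowest Havcr1 had 78.9, 58.9 and 61.4, the next 3 had 12.0, 26.9 and 43.0, and the 3 of highest Havcr1 had 46.7, 71.0 and 92.6. In S.SHR(2) the 3 lowest had 55.8, 64.2 and 54.5, the next 3 had 21.5, 23.2 and 21.7, and the last 3 had 25.9, 36.2 and 38.5. The rat of highest Havcr1 had the highest Tnc value in Dahl S, whereas in S.SHR(2) the last 3 all lay under the first 3. This contrast was not tested. Fn1 in Dahl S was at 635, 467 and 538, then 365, 386 and 443, and then 509, 656 and 801 in the same order. In S.SHR(2) it was at 625, 507 and 543, then 327, 408 and 390, and then 383, 472 and 578. Col3a1 in Dahl S was at 1615, 1255 and 1470, then 649, 632 and 692, and then 1016, 1103 and 1204, so the last 3 lay below the first 3. Col4a1, Col18a1 and Lox had r of 0.80, 0.86 and 0.78 in the 12.

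Nid1 had a negative correlation in the 12 rats, with r = −0.90 and rho = −0.89, and r = −0.85 without the 2 farthest. Timp3 had r = −0.73 in the 12 and r = 0.27 in the 6 rats below the gap. In the 6, r was −0.58 without the 2 farthest and 0.84 without S.SHR(2) replicate 1, the array of highest 3′/5′ ratio. So few rats cannot show whether the relation extends to the low end of Havcr1. In these 6 rats 16 of 34 genes had a positive correlation. Without the 2 arrays of high 3′/5′ ratio, r in the remaining 11 rats was 0.80 for Tnc, 0.83 for Fn1, 0.71 for Col3a1, 0.60 for Lox and −0.83 for Nid1.

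**Figure D3:**
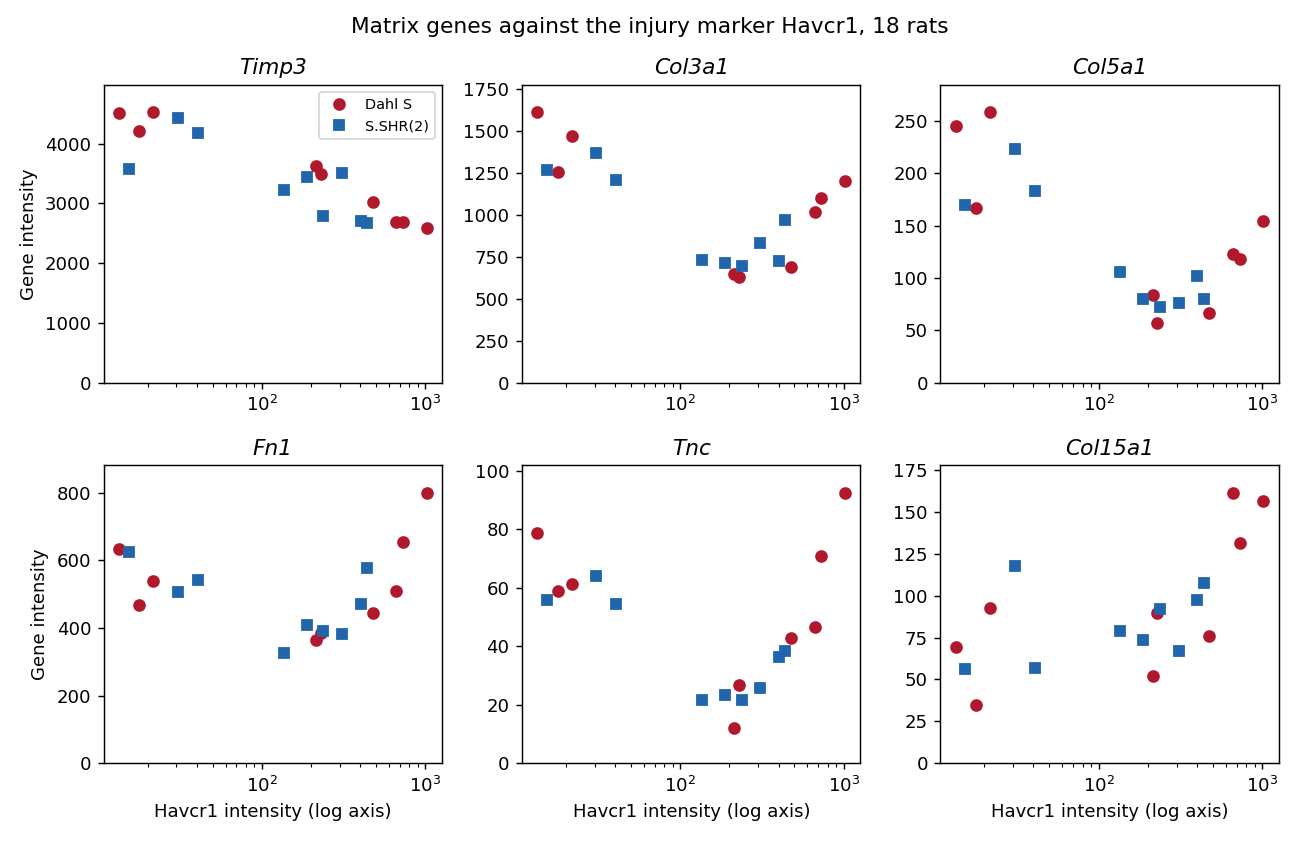
Intensity of 6 matrix genes (linear axis) against Havcr1 intensity (log axis) in the 18 rats, Dahl S as red circles and S.SHR(2) as blue squares. Col3a1, Fn1 and Tnc are high in the 6 rats of lowest Havcr1 and, in the other 12, higher where Havcr1 is higher, with r of 0.81, 0.90 and 0.91, whereas Timp3 is lower in the 12 than in most of the 6 (r of −0.90 over all rats).

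Col1a2 and Eln fell into 2 separate clusters of 12 and 6 rats, so no pooled correlation was computed for them. For both, the 6 rats of the upper cluster were the 6 with the lowest Havcr1, which are replicates 1, 2 and 3 of each strain. They are also the first 6 arrays in the order of deposition. Age, array processing and other differences shared by these rats cannot be told apart. In Dahl S the lowest of the upper rats had a Col1a2 intensity of 571 and the next rat 305, and in S.SHR(2) the values were 465 and 293. The same 6 rats held the highest values of Mmp9, a gelatinase of leukocytes and developing tissue, with 34.1 to 65.6 in Dahl S and 64.2 to 89.2 in S.SHR(2). The other rats lay at 13.0 or less and 24.3 or less, and Mmp9 was left out by the filter on dim probe sets.

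Markers of other cell types separated the same rats. Ranks were taken within each strain on the normalized log2 scale, and the ranges printed are deposited intensities. In both strains the 3 rats of lowest Havcr1 held the 3 highest values for 9 of 36 matrix genes, against 3.15% of all genes, and the 3 lowest values for none, against 3.38%. Of the endothelial markers 2 of 5 were highest there: Emcn lay from 799 to 1097 in these 6 rats and from 490 to 680 in the other 12, and Tek from 637 to 842 and from 438 to 602. The podocyte marker Podxl (1 of 5) lay from 456 to 626 and from 283 to 393, and Myh11 of smooth muscle (1 of 7) and Ccnb2 of proliferation (1 of 9) were also highest there. Of the macrophage markers 4 of 9 were lowest there (Cd68, Csf1r, Lyz2 and Ctss), with Ctss from 227 to 359 against 551 to 964. Their summed intensity over 10 genes ran from 2120 to 3337 in the 6 rats and from 3664 to 5312 in the 12. Ptprc of leukocytes (1 of 2), Umod of the thick ascending limb (1 of 3) and the tubular injury markers Lcn2 and Clu were lowest there too. With Havcr1 these make 3 of 6 injury markers, but Havcr1 picked these rats and is lowest there by that choice. Umod was lowest only on the normalized scale. Its deposited intensities ran from 6048 to 7113 in the 6 rats and from 5258 to 7695 in the 12. None was so placed among the tested markers of proximal tubule, collecting duct, fat, red blood cells and urothelium. For urothelium Upk3a alone was tested. Upk1b, left out by the filter on dim probe sets, had its highest deposited intensities in the same 6 rats. They reached 46.2 in Dahl S and 62.3 in S.SHR(2), and the other rats lay at 30.7 or less and 27.7 or less. Krt5, also left out, did not separate these rats. The part of these cell types in the pattern of the matrix genes was not tested.

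With Top2a, 29 of 34 genes were positively correlated over the 18 rats, and Thbs2 alone passed by r (r = 0.66, permutation p = 0.0038, adjusted p = 0.043). Its rho of 0.56 had a permutation p of 0.013 and an adjusted p of 0.092, and r was 0.47 without the 2 rats farthest from the median of Top2a. Top2a is dim on these arrays, at 27.6 to 54.4 in Dahl S and 13.9 to 61.0 in S.SHR(2).

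**Figure D4:**
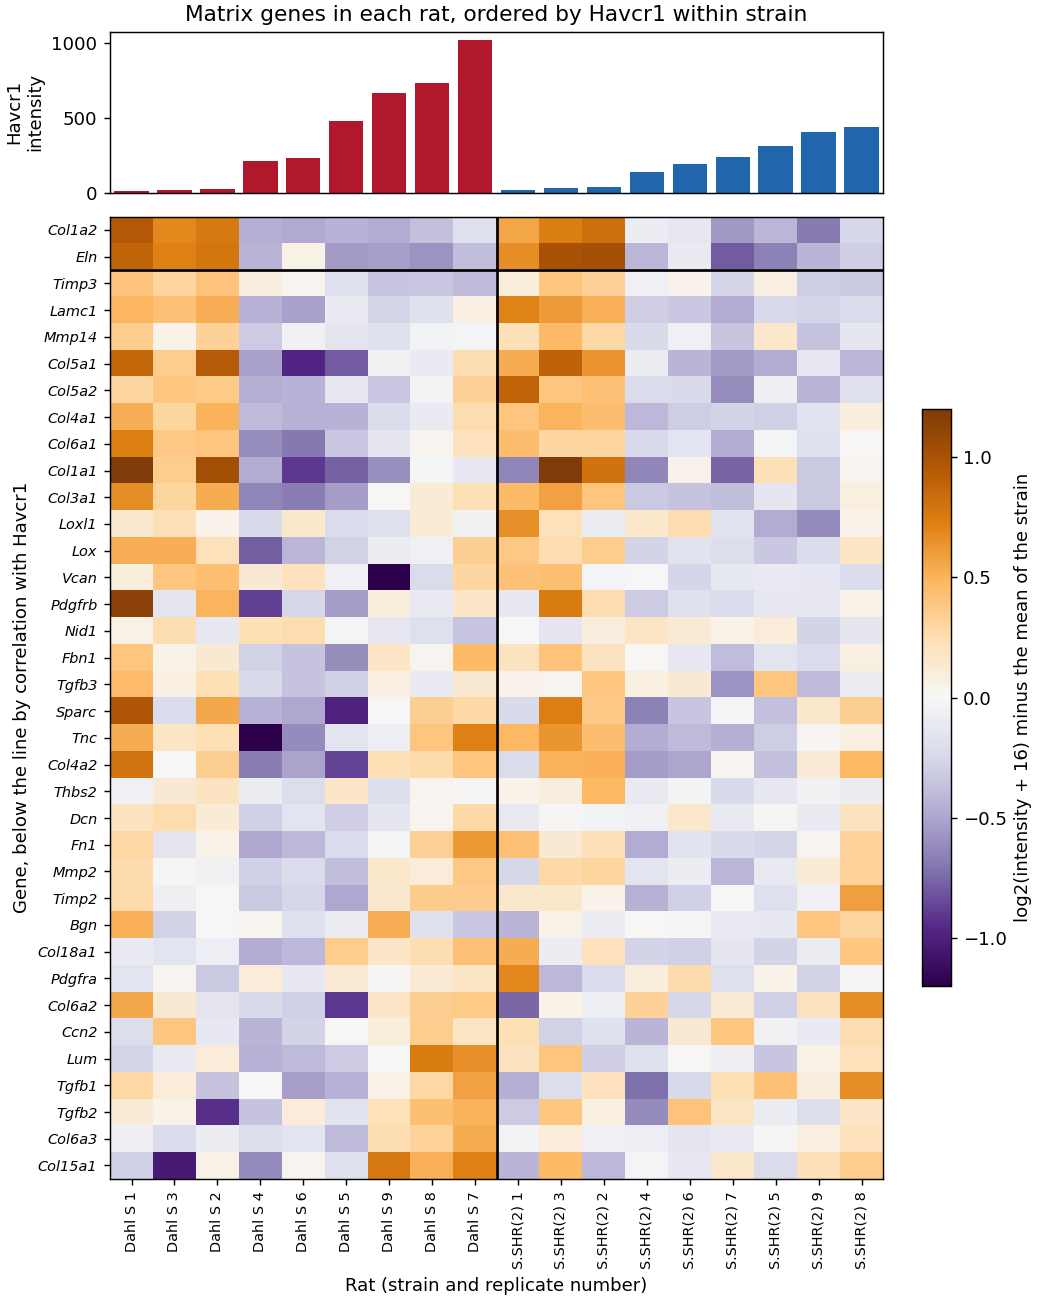
Top, Havcr1 intensity of each rat. Below, log2(intensity + 16) of the 36 tested genes minus the mean of the strain, with rats ordered by Havcr1 within strain. Col1a2 and Eln, for which no correlation was computed, stand above the line, and the other 34 genes are ordered by their r with Havcr1 over 18 rats, from Timp3 to Col15a1. Most upper rows are high in the 3 rats of lowest Havcr1 of each strain, with Col1a1 in S.SHR(2) replicate 1 as an exception, and the bottom rows in Dahl S are high in the 3 rats of highest Havcr1.

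Neighbouring members allow a further look at shared variation, since 4 pairs lie next to each other in the gene order of the assembly GRCr8. Col4a1 and Col4a2, whose products join in 1 collagen IV trimer, and whose windows are printed above, had r = 0.77 over the 18 rats (permutation p = 0.00077, adjusted over 4 pairs p = 0.0015) and rho = 0.83 (permutation p = 2e-04, adjusted p = 4e-04). Without the 2 farthest rats r was 0.73. Col3a1 and Col5a2 had r = 0.86 (permutation p = 2e-05, adjusted p = 8e-05) and rho = 0.85 (permutation p = 2e-05, adjusted p = 8e-05), and r = 0.84 without the 2 farthest. Lum and Dcn had r = 0.51 (permutation p = 0.07, adjusted p = 0.093) and rho = 0.50 (permutation p = 0.048, adjusted p = 0.064), and Col6a1 and Col6a2 had r = 0.21 (permutation p = 0.43) and rho = 0.22 (permutation p = 0.4). For the last pair r was −0.03 without the 2 farthest rats and 0.36 without the 2 arrays of high 3′/5′ ratio. The pairs were chosen after the data were seen, and their permutation did not hold age fixed either. Pairs of members that are not neighbours were not computed, so these values do not set neighbours apart from other members.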

How the data were processed

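The authors deposited linear intensities, 1 for each probe set on each array. The scaling was read from the values and the software behind them is, in the sources used here, not given. The members and gene lists were chosen with earlier results of these data known. Of 31099 probe sets, 57 controls were left out. Names came from the platform annotation, with symbols and chromosomes from the GRCr8 gene table (20758 of 20826 probe sets naming 1 gene matched). Values were transformed as log2(intensity + 16) and, because array medians spanned 0.24, over the limit of 0.2, quantile normalized. The 40% dimmest probe sets were left out. Strains were compared with limma 3.58.1 in R 4.3.3 (lmFit, eBayes with trend, two-sided, no covariates), with Benjamini-Hochberg adjustment over 10483 genes and no term for age, which 2 rats carry. The fit was tested on simulated data. Correlations used strain-centred values and two-sided permutation of rats within strain, and within either side of the Havcr1 gap are given with no test. The named genes were all members, and of the other matrix list up to 4 per direction by smallest p. Alternatives were other pseudocounts, filters, normalizations, eBayes settings, array weights, residual components, means over probe sets and each rat left out. Fits with the GAPDH 3′/5′ ratio, the split at the Havcr1 gap and the gene pairs are additions made once the values were known. matplotlib 3.10.9 drew the figures.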

Additional observations from a re-analysis of the deposited data

Results flagged for a closer look

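Among 72 sets of 9 rats, for 36 genes in each strain, 2 held a rat far from the others, and chance flags about 1 in 20. For Vcan in Dahl S, replicate 9 lay lowest, and its gap to the next rat took 0.684 of the range of the strain (4.39 against 5.56 on the log2 scale). For Thbs2 in S.SHR(2), replicate 2 lay highest, with a gap of 0.546 of the range (5.98 against 5.64).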

How the results depend on the processing

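No member was called in any of the 32 alternative fits, and the smallest limma adjusted p of a member was 0.15, for Col6a2 with 3 residual components. The number of members below 0 lay between 25 and 33 over these fits. The median over members stayed between −0.16 and −0.06 with 1 rat left out and between −0.18 and −0.08 otherwise. For 13 members, all within 0.10 of 0, the sign turned in at least 1 fit, most often for Pdgfra (10 fits) and Col4a1 (9 fits). The count of all genes called was 6, and it was 11 with values as deposited, 19 with array weights, 29 with 1 residual component, 107 with 3, 10 with probe sets averaged per gene and 11 with the GAPDH ratio as a covariate. With 1 rat left out it ranged from 6 to 13, the highest without Dahl S replicate 1. Other matrix genes called went from 0 to 1 with 1 residual component (Spp1) and to 3 with 3 components, and stayed at 0 with 1 rat left out. The cause of these changes was not tested. Residual components by construction lower the residual spread and leave the strain differences unchanged, so p-values with them can be too small. Without a filter Postn, Mmp7 and Mmp9 entered at −0.28, −0.14 and 0.24. With a pseudocount of 64 the within-strain SD of 9 dimmer members shrank by more than 1.5 times, for example Eln to 0.40. No paired analysis was possible because the labels give no replicate numbers shared by the strains. Probes near background limit Tnc, Thbs2, Vcan, Tgfb3 and Top2a most.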

Other observations

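Havcr1 had these intensities in the single rats: in Dahl S 13.4, 17.8, 21.7, 214, 229, 476, 664, 730 and 1020, and in S.SHR(2) 15.3, 30.7, 40.7, 136, 188, 238, 310, 403 and 439. The Dahl S rat labelled 4 weeks had 21.7 and the one labelled 12 weeks 214. Timp1, a protease inhibitor of injured and scarring tissue named here after its values were seen, ran from 91.9 over 155 to 460 in Dahl S and from 101 over 155 to 333 in S.SHR(2) (log2 difference −0.19 ± 0.266 SE).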
